A study of Danio rerio with 6 samples.

Results

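The genes described here encode the translation initiation factors (eIF) and elongation factors (eEF) of the zebrafish, the proteins that start protein synthesis at a start codon and carry it along the messenger RNA. They were all rows of the count table whose gene name begins with eif1 to eif6, eef1 or eef2, without the eif2ak genes, which encode kinases of eIF2. The rule found 79 of 32059 genes, 62 with eIF names and 17 with eEF names. They were measured in cells labelled as thyroid follicular cells, the hormone-making cells of the thyroid, sorted from fish aged 5 months. Thyroid and ionocyte markers differ between the 2 groups, as given below, so the name is used here only as a label. Every fish carried the transgene Tg(tg:nls-EGFP), a nuclear green reporter under the thyroglobulin promoter, and pax2a:mKO2-Knock-in, an orange reporter placed at pax2a, a transcription factor gene of thyroid development. Cells bright for mKO2 made the pax2a-high group and dim cells the pax2a-low group, with 3 libraries each, and the comparison asks how the 2 populations differ in RNA. The labels do not say whether a library came from 1 fish or a pool, or whether replicates came from separate fish, and the p-values therefore measure only how far these libraries spread, which may be technical.

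Translation begins when eIF2 brings the initiator tRNA to the small ribosomal subunit, which eIF1, eIF1A and the large eIF3 complex hold ready for scanning. The cap-binding protein eIF4E, the scaffold eIF4G and the helicase eIF4A load this subunit on the messenger RNA, and 4E-BP proteins block that step by holding eIF4E. During elongation eEF1A delivers each aminoacyl tRNA, eEF1B recharges eEF1A with GTP and eEF2 moves the ribosome on by one codon. Thyroid follicular cells make large amounts of a single secreted protein, thyroglobulin.

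The libraries held 18014891 to 35403210 counts in pax2a-high cells, against 6053741 to 10932845 in pax2a-low cells. Counts of the sort gene pax2a were 4969, 8521 and 20604 in the pax2a-high libraries, against 12, 10 and 2014 in the pax2a-low libraries, so pax2a-low replicate 3 stood above its group. Counts of the sort reporter mKO2 were 74, 671 and 654, against 0, 6 and 0, so there that library did not stand out. Those of EGFP were 4100, 5175 and 14635, against 138, 372 and 2252, where it did. Mitochondrially encoded rows took 0.799 to 1.17% of the pax2a-high counts and 24.1 to 49.0% of the pax2a-low counts, with pax2a-low replicate 1 the highest. The thyroglobulin gene tg took 15.3 to 24.0% of the pax2a-high counts and 0.398 to 3.80% of the pax2a-low counts. All 9 thyroid follicular markers in the table, the sort genes tg and pax2a among them, were higher in every pax2a-high library than in any pax2a-low library, with summed levels of 158800 to 241200 counts per 1000000 (CPM) and 3603 to 32910 CPM. Of 23 ionocyte markers, 11 of the 19 tested fell by edgeR's test, with summed levels of 309 to 581 CPM in pax2a-high cells, against 10070 to 10990 CPM in pax2a-low cells. The ionocyte genes rhbg, rhcgb, kcnj1a.5, ca15a, foxi3a and gcm2 were at 0 in every pax2a-high library. Of 15 macrophage and leukocyte markers 6 were tested and 0 passed, with summed levels of 28.0 to 172 CPM in pax2a-high cells, against 576 to 1517 CPM in pax2a-low cells. Among these, lyz and c1qb were at 0 in all 6 libraries, c1qa and c1qc in every pax2a-high library, and lcp1 and mpx in every pax2a-low library, where the pax2a-high libraries had at most 61 and 8 counts. Most of the leukocyte sum came from cd74a, cd74b and mpeg1.2, with means of 570, 299 and 96.1 CPM in pax2a-low cells. In pax2a-high cells their means were 47.8, 38.7 and 3.01 CPM. Of the 6 tested, 4 had negative log2 fold changes, and ptprc (1.93) and coro1a (0.72) had positive ones. The erythrocyte, endothelial, fibroblast and epidermis lists, with 2, 3, 5 and 6 genes tested, also had 0 that passed. The fibroblast and matrix list summed to 928, 902 and 1263 CPM in the pax2a-high libraries, against 5.01, 280 and 142 CPM in the pax2a-low libraries, of which fn1b, a fibronectin gene, gave 790, 833 and 1214 CPM, against 1.16, 130 and 131 CPM. The sums of the erythrocyte, endothelial and epidermis lists overlapped. The thyroid, ionocyte, leukocyte and matrix sums and the mitochondrial share move with the same split of libraries as the results that follow, and their part in those results was not tested. In bulk samples, fewer cells of a type and less RNA per cell cannot be told apart.

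Translation factor transcripts took a larger part of the pax2a-high libraries. The 62 eIF genes summed to 6002, 5910 and 4935 CPM in the pax2a-high libraries, against 1412, 2930 and 2622 CPM in the pax2a-low libraries. The 17 eEF genes summed to 9363, 8696 and 7103 CPM in the pax2a-high libraries, against 1462, 3803 and 2528 CPM in the pax2a-low libraries. Neither sum overlapped between the groups, and both were lowest in pax2a-low replicate 1, the library with the largest mitochondrial share. With tg and the mitochondrial rows taken out of the totals, eIF genes held 0.664 to 0.685% of counts in pax2a-high libraries, against 0.239 to 0.438% in pax2a-low libraries, and eEF genes 0.955 to 1.05% and 0.248 to 0.565%. For each count on an eIF gene there were 1.56, 1.47 and 1.44 counts on eEF genes in the pax2a-high libraries, against 1.03, 1.30 and 0.964 in the pax2a-low libraries. This ratio carries transcript lengths and is compared here only between libraries, where the groups did not overlap. That order was not seen without eef1a1l1 and eef2b, which held 86.6, 86.4 and 86.9% of all eEF counts in the pax2a-high libraries, against 72.0, 84.2 and 86.4% in the pax2a-low libraries. For the other 15 eEF genes the ratio to eIF counts was 0.209, 0.200 and 0.188 in the pax2a-high libraries, against 0.290, 0.205 and 0.131 in the pax2a-low libraries, which overlap. These sums and ratios are given as a description, with no test.

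Gene by gene, 1 of the 71 factors tested rose in pax2a-high cells and 0 fell. That is 1.41% of them higher, near the 1.12% called higher over all 12524 genes tested with the quasi-likelihood test of edgeR (p under 0.05 after Benjamini-Hochberg adjustment), while 1.46% of all genes were called lower. At an unadjusted p under 0.05 by edgeR, 18 (25.4%) were higher and 0 lower, against 9.76% and 4.60% of all genes. In 34 of all 79 factors every pax2a-high library lay above every pax2a-low library, and 0 lay the other way round. The 34 were all among the 71 tested (47.9%), beside 21.4% of all tested genes with the first pattern and 8.11% with the second. The median log2 fold change (pax2a-high over pax2a-low) was 1.36 for 58 tested eIF genes and 1.49 for 13 tested eEF genes, against 0.35 for all genes tested. It was positive for 47 of the eIF genes and 10 of the eEF genes, 57 of 71 in all, while 57.1% of all genes had a positive value.

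These counts describe only genes that passed the filter on low counts. Of the 71, 4 (eif2b1, eif4ebp3, eef1akmt1 and eef1e1) reached it through the pax2a-high libraries alone, so their direction was fixed in advance. All 4 were among the 34 that stood apart, and all but eef1e1 among the 18 at an unadjusted edgeR p under 0.05. In 13 of the 71, all 3 pax2a-high and no more than 1 pax2a-low library reached the filter level. The 18 and the 34 are therefore not read as an excess over all genes. The number that rose was 0 without pax2a-high replicate 1, 3 without pax2a-high replicate 2 and 5 without pax2a-high replicate 3. Over all genes it was 40 of 14914, 193 of 13913 and 246 of 13136 in these fits. For the factors it was 2, 3 and 2 without pax2a-low replicates 1, 2 and 3. Over all genes it was then 270 of 15831, 153 of 14995 and 247 of 15643. The gap of the medians to that of all genes depended on the libraries and on the tool. Without pax2a-low replicate 2 the medians were 1.63 for eIF, 1.88 for eEF and 1.33 for all genes, and with limma they were 1.98, 1.55 and 1.52, so the order of eIF and eEF turned. The eIF median exceeded that of all genes by 0.50, 0.55 and 0.67 without pax2a-low replicate 1, pax2a-low replicate 3 and pax2a-high replicate 1, against 1.01 with all libraries. The eEF median exceeded it by 0.69 without pax2a-low replicate 3, against 1.14 with all libraries.

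**Figure D1:**
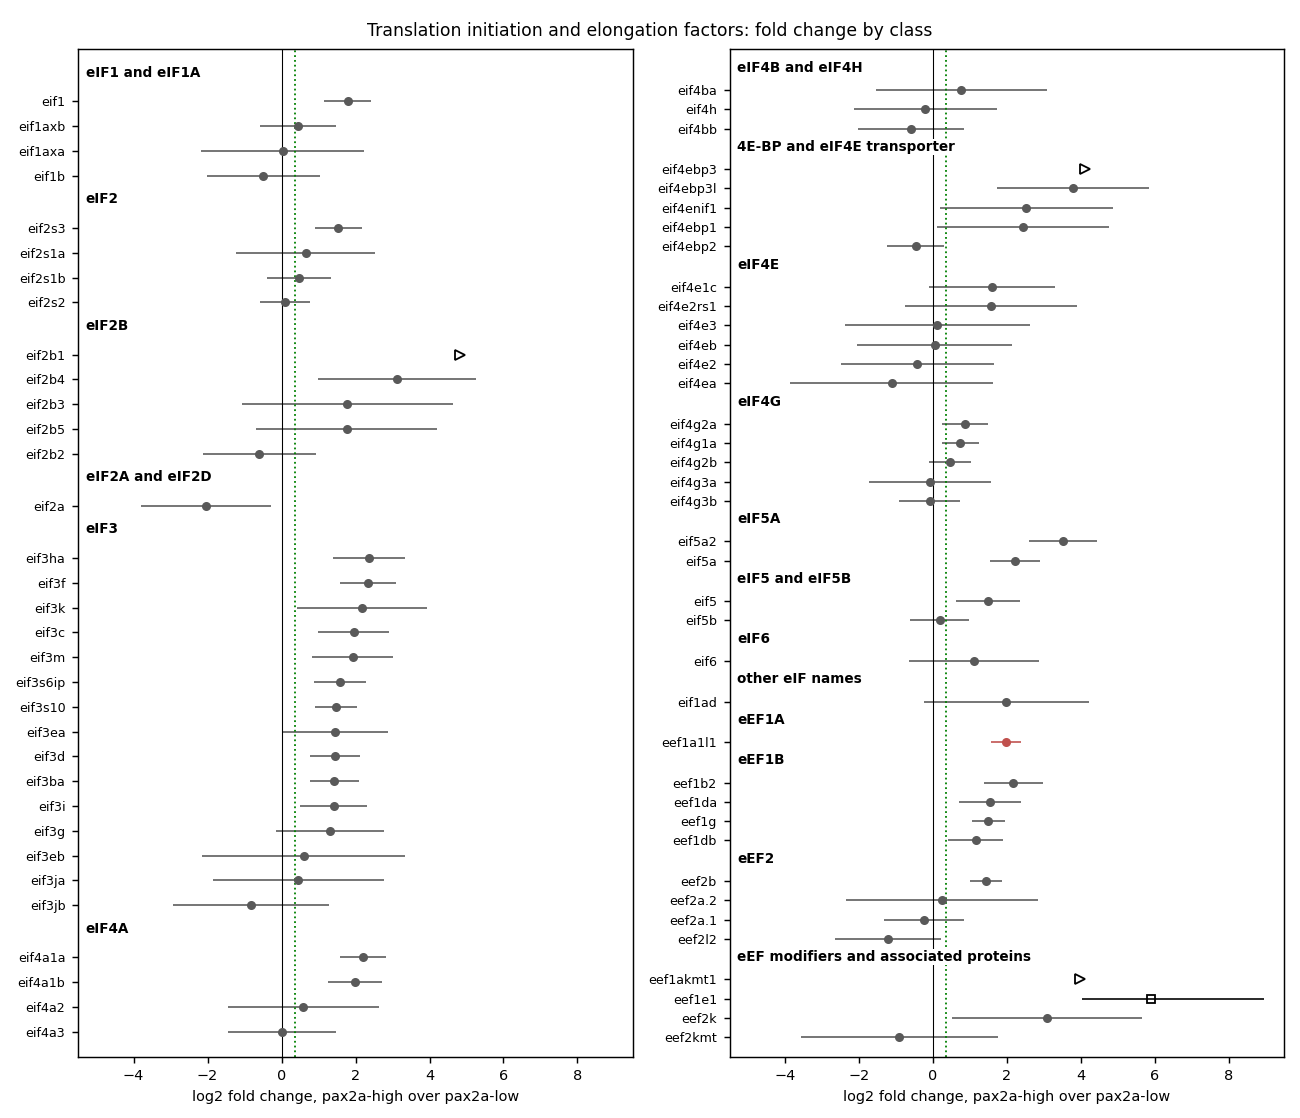
Log2 fold change (x axis, pax2a-high over pax2a-low) of the 71 tested factors, grouped by class, with bars of 1 standard error. The red point, eef1a1l1, is the 1 gene that passed; triangles mark lower bounds for genes with 0 counts in pax2a-low libraries, the open square is a pooled ratio of counts with its 95% interval, and the dotted line is the median of all genes (0.35).

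The number of the 79 genes with at least 1 count was 70, 72 and 75 in the pax2a-high libraries, against 51, 67 and 59 in the pax2a-low libraries. After every library was thinned at random to the total of the shallowest, the numbers were 70, 72 and 75 in pax2a-high libraries, against 51, 67 and 58 in pax2a-low libraries. Over all genes, 12333, 16200 and 19550 had a count in the pax2a-high libraries, against 8392, 14215 and 11301 in the pax2a-low libraries. Thinning equalised total counts, of which mitochondrial rows held the unequal parts given above. A count in all 3 libraries was found for 67 genes in pax2a-high cells, against 45 in pax2a-low cells, and 44 genes had one in all 6. The floor of 3 counts corresponded to 0.0842 to 0.183 CPM in pax2a-high libraries, against 0.234 to 0.578 CPM in pax2a-low libraries.

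The elongation factor gene eef1a1l1 (ENSDARG00000020850), which encodes the eEF1A that carries aminoacyl tRNA, was the factor that rose. It had 5282, 4816 and 4081 CPM in the pax2a-high libraries, against 633, 1743 and 1231 CPM in the pax2a-low libraries. Every pax2a-high library was above every pax2a-low one, and pax2a-low replicate 1 was the lowest. The means were 4726 ± 605 CPM in pax2a-high cells, against 1202 ± 556 CPM in pax2a-low cells (mean ± SD, n = 3 each), a 3.93-fold difference (log2 fold change 1.98 ± 0.39 SE, adjusted p = 0.0105 in edgeR). The call was lost without pax2a-high replicate 1 (log2 fold change 1.92, edgeR adjusted p = 0.0571). The gene accounted for 99.9% or more of all eEF1A counts in each library. Of its relatives, eef1a1a had 6, 0 and 74 counts in pax2a-high libraries, against 0 in pax2a-low libraries, eef1a2 had 28 counts in pax2a-high replicate 3 alone, and eef1a1l2 had 0 counts in all 6, which allows up to 3 counts in each library. Copies of eEF1A resemble each other closely, and reads shared between them could be assigned differently, so the near absence of the others is uncertain.

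The exchange factor eEF1B, whose subunits reload eEF1A with GTP, was read from 4 genes, none of which passed over all genes. In none did the groups overlap, while 21.4% of all genes tested had every pax2a-high library on top. The gamma subunit gene eef1g had 649, 704 and 492 CPM in pax2a-high libraries, against 204, 302 and 150 CPM in pax2a-low libraries (log2 fold change 1.49 ± 0.45 SE, adjusted p = 0.108 in edgeR). The subunit gene eef1b2, which encodes a catalytic exchange subunit, had 232, 149 and 136 CPM in pax2a-high libraries, against 43.4, 65.0 and 6.62 CPM in pax2a-low libraries (log2 fold change 2.17 ± 0.80 SE, adjusted p = 0.192 in edgeR). In both genes the lowest pax2a-low value came from replicate 3. The delta subunit genes had log2 fold changes of 1.53 for eef1da (SE 0.84, edgeR adjusted p = 0.475) and 1.16 for eef1db (SE 0.74, edgeR adjusted p = 0.613). Summed over the 4 genes, eEF1B stood at 1130, 1106 and 831 CPM in pax2a-high libraries, against 283, 476 and 299 CPM in pax2a-low libraries.

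Of the genes for the translocation factor eEF2, eef2b held most of the counts in every library. It had 2825, 2698 and 2094 CPM in the pax2a-high libraries, against 419, 1459 and 953 CPM in the pax2a-low libraries. The groups did not overlap, but the 2.69-fold difference missed the threshold (log2 fold change 1.43 ± 0.43 SE, adjusted p = 0.107 in edgeR). Without pax2a-high replicate 3, the pax2a-high library nearest to the pax2a-low values, it passed (adjusted p = 0.0112 in edgeR). Its relatives had smaller or negative log2 fold changes, -0.24 for eef2a.1 (SE 1.07, edgeR adjusted p = 0.982), 0.24 for eef2a.2 (SE 2.58, edgeR adjusted p = 0.993) and -1.23 for eef2l2 (SE 1.44, edgeR adjusted p = 0.861). For eef2l2, the levels were 29.5, 13.9 and 6.51 CPM in pax2a-high libraries, against 60.5, 44.0 and 12.3 CPM in pax2a-low libraries, which overlap. The value for eef2a.1 became positive without pax2a-high replicate 2 (0.05) and without pax2a-low replicate 1 (0.16).

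Of the 5 genes for modifiers and partners of elongation factors, 4 were tested and 0 passed. The eEF2 kinase gene eef2k, whose product phosphorylates eEF2 and slows elongation, had 382, 328 and 758 counts in pax2a-high libraries, against 0, 58 and 0 counts in pax2a-low libraries (adjusted p = 0.754 in edgeR). The predicted eEF1A methyltransferase gene eef1akmt1 had 32, 212 and 217 counts in pax2a-high and 0 in each pax2a-low library. Its mean of 6.26 ± 4.39 CPM (SD, n = 3) was 15.8-fold a floor of 0.395 CPM, a bound from counting alone (adjusted p = 0.203 in edgeR). That floor is what 3 counts in each pax2a-low library come to on average, and the lowest pax2a-high library had 1.95 CPM. The gene eef1e1, named for elongation and known in mammals as part of the multi-tRNA synthetase complex, had 329 counts in all pax2a-high libraries together, against 2 in all pax2a-low libraries together. The ratio of pooled rates was 59.8 (95% exact Poisson interval 16.4 to 496, edgeR adjusted p = 0.418), and 238 of the 329 counts came from pax2a-high replicate 1. That interval covers counting error alone and not the spread between libraries. Both eef1akmt1 and eef1e1 reached the count filter through the pax2a-high libraries alone, which fixed their direction. The eEF2 methyltransferase gene eef2kmt had 38, 140 and 184 counts in pax2a-high libraries, against 0, 222 and 0 counts in pax2a-low libraries. The remaining modifier, eef1akmt2, had 246 counts in pax2a-high replicate 3 and 0 elsewhere, and was not tested.

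**Figure D2:**
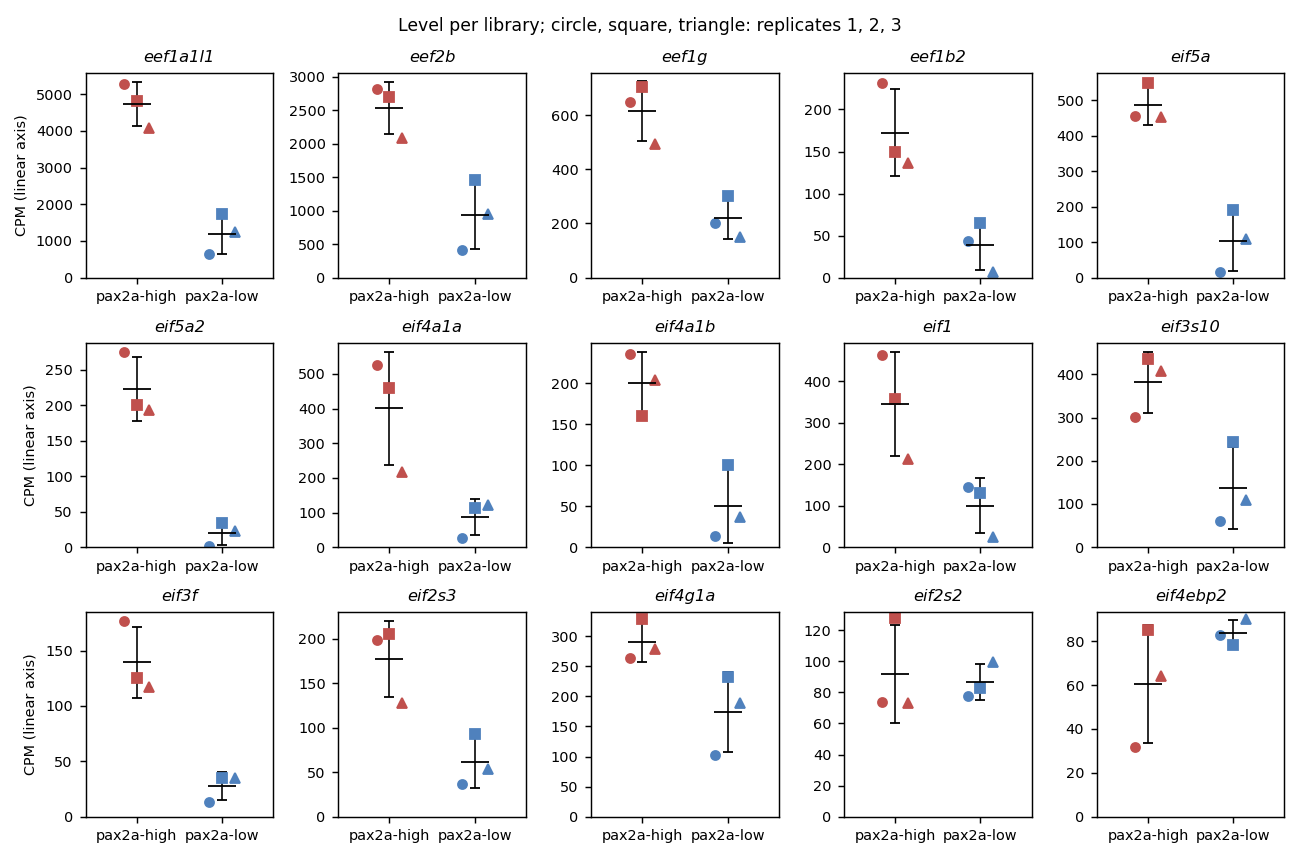
Level in CPM (y axis, linear and starting at 0) of 15 factors in the pax2a-high and pax2a-low libraries, with 1 point per library and bars for the mean ± 1 SD of 3 libraries. In the first 13 panels every pax2a-high library lies above every pax2a-low library, whereas eif2s2 and eif4ebp2 overlap.

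Both genes of eIF5A, a factor that carries the modified residue hypusine and, despite its name, acts in elongation and termination, had large differences. The gene eif5a2 (ENSDARG00000056186) had 274, 201 and 193 CPM in the pax2a-high libraries, against 1.16, 34.2 and 23.0 CPM in the pax2a-low libraries. Its log2 fold change, 3.51 with SE 0.92, missed the threshold (adjusted p = 0.0541 in edgeR). It passed with DESeq2 size factors in edgeR (adjusted p = 0.0396) and with DESeq2 (adjusted p = 0.011). It also passed with library sizes that left out tg and the mitochondrial rows (adjusted p = 0.0474 in edgeR). It still missed with limma, with a filter of 5 CPM in 3 libraries and with counts thinned to the shallowest library. Its partner eif5a (ENSDARG00000017235) had 454, 549 and 451 CPM in pax2a-high libraries, against 15.8, 189 and 108 CPM in pax2a-low libraries (log2 fold change 2.21 ± 0.67 SE, adjusted p = 0.112 in edgeR). In neither gene did the groups overlap, with pax2a-high on top as in 21.4% of all genes tested. In both, pax2a-low replicate 1 was the lowest, with 6 counts of eif5a2 and 82 of eif5a. Without it the eif5a2 value was 2.996 (adjusted p = 0.00757 in edgeR). Without pax2a-high replicate 2 the edgeR adjusted p was 0.00431 for eif5a2 and 0.0352 for eif5a, and without pax2a-high replicate 3 it was 0.00449 and 0.0133. The enzyme gene dhps, whose product starts hypusine synthesis, was at 20.9 ± 14.7 CPM in pax2a-high cells, against 2.23 ± 3.87 CPM in pax2a-low cells (mean ± SD, n = 3 each, edgeR adjusted p = 0.737).

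The helicase eIF4A, which unwinds the leader of the messenger RNA, is encoded by eif4a1a, eif4a1b and eif4a2. The gene eif4a1a (ENSDARG00000092115) had 525, 459 and 217 CPM in the pax2a-high libraries, against 26.4, 114 and 121 CPM in pax2a-low libraries (log2 fold change 2.20 ± 0.62 SE, adjusted p = 0.0799 in edgeR). It passed without pax2a-high replicate 3, the lowest of its group (adjusted p = 0.0053 in edgeR). It also passed without pax2a-low replicate 3, the highest of its group (adjusted p = 0.0303 in edgeR). Both passes leave out the library nearest to the other group and are not read as support for a difference. Levels of eif4a1b were 235, 160 and 204 CPM in pax2a-high libraries, against 13.7, 100 and 36.8 CPM in pax2a-low libraries (log2 fold change 1.99 ± 0.73 SE, adjusted p = 0.192 in edgeR). Neither overlapped between the groups, with pax2a-high on top as in 21.4% of all genes tested. By contrast, eif4a2 overlapped (log2 fold change 0.58 ± 2.04 SE, adjusted p = 0.973 in edgeR), as did eif4a3, which acts in the exon junction complex and averaged 30.5 ± 12.6 CPM in pax2a-high cells, against 30.5 ± 28.6 CPM in pax2a-low cells (mean ± SD, n = 3 each). The helper genes of the helicase, eif4ba, eif4bb and eif4h, had log2 fold changes of 0.77, -0.59 and -0.21 with standard errors of 1.43 to 2.32, and the sums over the 3 genes overlapped at 33.7 to 68.8 CPM in pax2a-high libraries, against 51.7 to 74.0 CPM in pax2a-low libraries.

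The scaffold and cap-binding genes overlapped more. Of 5 eIF4G genes, eif4g1a had 264, 328 and 279 CPM in pax2a-high libraries, against 102, 233 and 188 CPM in pax2a-low libraries (log2 fold change 0.74 ± 0.51 SE, adjusted p = 0.653 in edgeR). The highest value in the class was 0.87 for eif4g2a (SE 0.62, edgeR adjusted p = 0.671), whose relative in mammals supports translation without the cap-binding protein, and the lowest was -0.09 for eif4g3b (SE 0.83, edgeR adjusted p = 0.992). Only eif4g1a and eif4g2a did not overlap between the groups among these 5, with pax2a-high on top as in 21.4% of all genes tested. Of 7 cap-binding eIF4E genes, 6 were tested and 0 had groups that stood apart. They ranged in log2 fold change from -1.11 for eif4ea (SE 2.74) to 1.59 for eif4e1c (SE 1.71), with eif4e2rs1 at 1.57 (SE 2.33) and eif4eb at 0.04 (SE 2.104), and edgeR adjusted p of 0.839 to 0.999. Summed eIF4E levels were 111, 66.9 and 97.8 CPM in pax2a-high libraries, against 27.0, 71.2 and 91.9 CPM in pax2a-low libraries. The germline-type gene eif4e1b had 6 counts in pax2a-high replicate 2 and 10 in pax2a-low replicate 1, and was not tested.

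Of the 4 genes for repressors of the cap-binding protein, 0 passed in edgeR. The gene eif4ebp2 was at 32.0, 85.1 and 64.1 CPM in pax2a-high libraries, against 82.9, 78.2 and 90.2 CPM in pax2a-low libraries (log2 fold change -0.47 ± 0.76 SE, adjusted p = 0.916 in edgeR), and the groups overlapped through pax2a-high replicate 2. The other 3 repressor genes did not overlap, while 21.4% of all genes tested had every pax2a-high library on top. Counts of eif4ebp3l were 506, 1322 and 1170 in pax2a-high libraries, against 0, 75 and 2 in pax2a-low libraries (log2 fold change 3.78 ± 2.05 SE, adjusted p = 0.469 in edgeR). Those of eif4ebp3 were 220, 86 and 92 in pax2a-high and 0 in each pax2a-low library (edgeR adjusted p = 0.203). Its mean was 17.2-fold that floor of 0.395 CPM, a bound from counting alone, with 2.58 CPM in its lowest pax2a-high library. It too reached the count filter through the pax2a-high libraries alone. Counts of eif4ebp1 were 578, 197 and 410 in pax2a-high libraries, against 0, 26 and 92 in pax2a-low libraries (log2 fold change 2.44 ± 2.33 SE, adjusted p = 0.800 in edgeR). The 4 repressor genes together had 1.01, 2.49 and 1.14 counts per eIF4E count in pax2a-high libraries, against 3.07, 1.27 and 1.06 in pax2a-low libraries, which overlap. The transporter gene eif4enif1, whose product carries eIF4E into the nucleus, was at 23.3 ± 12.1 CPM in pax2a-high cells, against 4.06 ± 6.70 CPM in pax2a-low cells (mean ± SD, n = 3 each, edgeR adjusted p = 0.796).

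Genes of the eIF3 complex, the scaffold on the small subunit, numbered 17. Of these 15 were tested, 14 had a positive log2 fold change, 11 had groups that did not overlap and 0 passed. Over all genes tested, 57.1% had a positive value and 21.4% had every pax2a-high library on top. The median was 1.46 and the summed level was 2084, 2175 and 1905 CPM in pax2a-high against 318, 996 and 707 CPM in pax2a-low libraries. The largest subunit, given in the table as eif3s10 and known in mammals as eIF3a, had 302, 435 and 408 CPM in pax2a-high libraries, against 60.9, 244 and 109 CPM in pax2a-low libraries (log2 fold change 1.47 ± 0.56 SE, adjusted p = 0.202 in edgeR). The subunit gene eif3f had 176, 125 and 117 CPM in pax2a-high libraries, against 13.1, 34.6 and 35.1 CPM in pax2a-low libraries (log2 fold change 2.34 ± 0.75 SE, adjusted p = 0.135 in edgeR), and passed with DESeq2 (adjusted p = 0.0275). Levels of eif3ha were 94.1, 119 and 56.3 CPM in pax2a-high libraries, against 6.55, 24.1 and 21.5 CPM in pax2a-low libraries (log2 fold change 2.37 ± 0.97 SE, adjusted p = 0.237 in edgeR), the highest value of the complex. The lowest was eif3jb, which encodes a loosely bound subunit (-0.82, SE 2.12, edgeR adjusted p = 0.961).

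Several eIF3 subunits were present in all pax2a-high libraries and nearly absent from 1 or 2 of the pax2a-low libraries. Counts of eif3c were 5091, 7522 and 11180 in pax2a-high libraries, against 18, 1212 and 1368 in pax2a-low libraries (log2 fold change 1.95 ± 0.95 SE, adjusted p = 0.411 in edgeR). Those of eif3ea were 3452, 5776 and 7846 in pax2a-high libraries, against 2, 588 and 2434 in pax2a-low libraries. Those of eif3i were 2698, 1982 and 4644 in pax2a-high libraries, against 16, 490 and 1092 in pax2a-low libraries. In these 3 genes pax2a-low replicate 1 was the low one. For eif3k the pax2a-low libraries had 0, 356 and 2 counts and for eif3m 12, 843 and 84, so there replicate 2 stood above both others. Without pax2a-low replicate 2, eif3m and eif3k passed with edgeR adjusted p of 0.0351 and 0.0368. These passes come from leaving out the library nearest to the pax2a-high values, and both genes were named after their values were seen. They are not read as support for a difference. The subunits eif3ba, eif3d and eif3s6ip (eIF3l in mammals) were more even, with log2 fold changes of 1.43, 1.44 and 1.57 and standard errors of 0.66, 0.69 and 0.71. The second copies eif3bb and eif3hb had counts in 1 library each, 142 in pax2a-high replicate 1 and 110 in pax2a-high replicate 2, and were not tested.

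**Figure D3:**
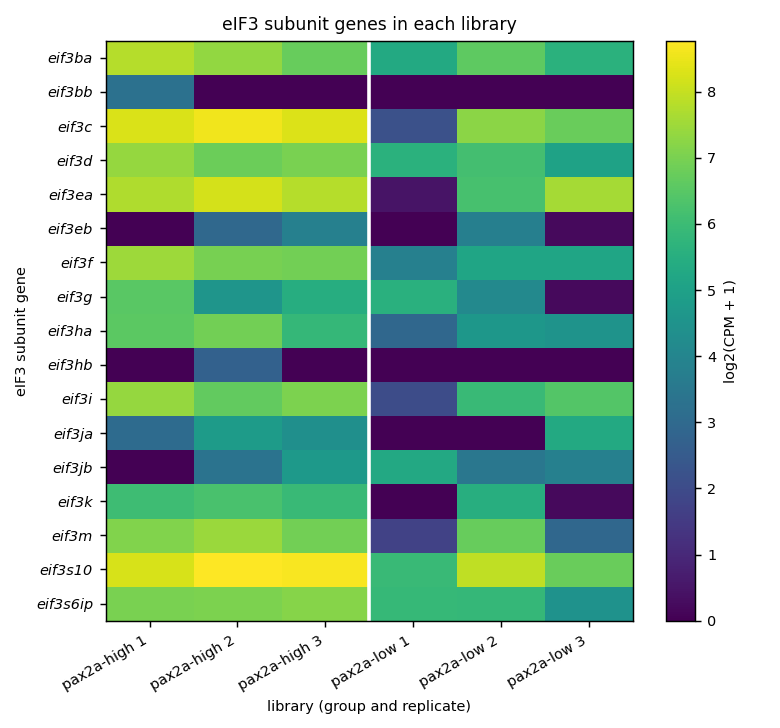
Level of the 17 eIF3 subunit genes as log2(CPM + 1) (colour scale) in each library (columns, pax2a-high left of the white line, pax2a-low right of it). Most rows are brighter in the pax2a-high libraries, and eif3ea, eif3c and eif3i are dark in pax2a-low replicate 1.

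Of the 4 genes of the ternary complex factor eIF2, 0 passed. The gamma subunit gene eif2s3, the GTP-binding subunit, had 199, 205 and 128 CPM in pax2a-high libraries, against 37.2, 92.8 and 53.4 CPM in pax2a-low libraries (log2 fold change 1.53 ± 0.64 SE, adjusted p = 0.243 in edgeR). The beta subunit gene eif2s2 had 73.9, 128 and 73.3 CPM in pax2a-high libraries, against 77.5, 82.8 and 99.7 CPM in pax2a-low libraries, with the groups overlapping (log2 fold change 0.08 ± 0.67 SE, adjusted p = 0.991 in edgeR). The alpha subunit genes eif2s1a and eif2s1b, whose product is the target of the eIF2 kinases, had log2 fold changes of 0.66 (SE 1.88) and 0.48 (SE 0.87) and overlapped. Whether the subunits differ from each other was not tested.

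The exchange factor eIF2B, which recharges eIF2, was read at low levels from 5 genes. The alpha subunit gene eif2b1 had 152, 391 and 166 counts in pax2a-high and 0 in each pax2a-low library (adjusted p = 0.190 in edgeR). Its mean was 28.5-fold that floor of 0.395 CPM, a bound from counting alone, and its lowest pax2a-high library had 4.66 CPM. It reached the count filter through the pax2a-high libraries alone, which fixed its direction. The delta subunit gene eif2b4 had 448, 344 and 1788 counts in pax2a-high libraries, against 22, 54 and 0 in pax2a-low libraries (log2 fold change 3.12 ± 2.13 SE, adjusted p = 0.653 in edgeR). The catalytic epsilon subunit gene eif2b5 had 8.55, 20.03 and 14.2 CPM in pax2a-high libraries, against 0.385, 0 and 12.2 CPM in pax2a-low libraries (adjusted p = 0.896 in edgeR). At the other end, the beta subunit gene eif2b2 was at 36.9, 6.22 and 15.2 CPM in pax2a-high libraries, against 18.5, 13.9 and 55.9 CPM in pax2a-low libraries. The separate factor eif2a had the lowest log2 fold change of all 71 genes tested (-2.04, SE 1.76, edgeR adjusted p = 0.767), with 8.55, 0.809 and 15.5 CPM in pax2a-high libraries, against 27.8, 12.9 and 61.9 CPM in pax2a-low libraries. Another alternative carrier, eif2d, had 310 counts in pax2a-high replicate 3 and 2 in pax2a-low replicate 2.

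Among the factors of scanning and start codon choice, eif1 had 464, 357 and 214 CPM in pax2a-high libraries, against 145, 132 and 23.5 CPM in pax2a-low libraries (log2 fold change 1.78 ± 0.65 SE, adjusted p = 0.188 in edgeR), without overlap. Its relative eif1b overlapped (-0.49, SE 1.54, edgeR adjusted p = 0.969), as did eif1axb, an eIF1A gene (0.45, SE 1.03, edgeR adjusted p = 0.952). The gene eif5, whose product triggers GTP hydrolysis on eIF2, had 164, 84.1 and 79.8 CPM in pax2a-high libraries, against 43.6, 66.0 and 7.95 CPM in pax2a-low libraries (log2 fold change 1.48 ± 0.87 SE, adjusted p = 0.532 in edgeR). The subunit-joining GTPase gene eif5b overlapped, at 72.0 ± 6.97 CPM in pax2a-high cells, against 63.7 ± 39.0 CPM in pax2a-low cells (mean ± SD, n = 3 each). For eif6, which keeps the large subunit from joining early, the values were 65.1, 38.9 and 12.97 CPM in pax2a-high libraries, against 9.25, 45.2 and 0 CPM in pax2a-low libraries. The gene eif1ad, which encodes a protein with an eIF1A domain, had 156, 728 and 892 counts in pax2a-high libraries, against 0, 142 and 6 in pax2a-low libraries.

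Summed by class, the groups stood apart for 11 of the 18 classes of factors, always with the pax2a-high libraries above. No share over all genes was computed for such sums. A sum can be carried by the gene with the most counts. In eIF1 with eIF1A, in eIF2 and in eEF2, 3 of 4 genes overlapped, all but eif1, eif2s3 and eef2b. The median log2 fold changes of these 3 classes were 0.24, 0.57 and 0.001. The ratios of group means were 5.71 for eIF5A, 3.93 for eEF1A, 3.58 for eIF4A, 3.05 for eIF3, 2.90 for eEF1B, 2.52 for eEF2 and 2.404 for eIF1 with eIF1A. They were 1.76 for eIF5 with eIF5B, 1.71 for eIF2 and 1.62 for the 4E-BP class with the transporter. The class of eEF modifiers (3.40) stood apart under this scaling and overlapped with DESeq2 size factors or total counts as the denominator. The other 10 stood apart under all 4 scalings tried. Overlap was found for eIF2B (2.11), eIF4E (1.45), eIF4G (1.46), eIF4B with eIF4H (0.843), eIF2A with eIF2D (0.326), eIF6 (2.15) and eif1ad (3.95).

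Shares of a copy among like genes do not depend on how libraries are scaled. In 2 of the 14 shares computed the groups did not overlap. With 3 libraries in each group such splits also arise by chance, and no background share was computed for them. The gene eif5a gave 62.3, 73.2 and 70.0% of the counts of eif5a and eif5a2 in the pax2a-high libraries, against 93.2, 84.7 and 82.5% in the pax2a-low libraries. In pax2a-low replicate 1 that share rests on 88 counts (95% Wilson interval 85.9 to 96.8%, for counting error only). The gene eef2b gave 97.2, 98.6 and 97.5% of eEF2 counts in pax2a-high libraries, against 76.8, 94.2 and 95.5% in pax2a-low libraries. Other shares overlapped and some varied widely within a group. The share of eif4a1a among eif4a1a and eif4a1b averaged 64.9 ± 11.9% in pax2a-high libraries, against 65.3 ± 11.7% in pax2a-low libraries, and that of eef1db among both delta genes 60.7 ± 0.621% and 59.5 ± 20.3% (SD, n = 3 each). Copies are alike in sequence, and how reads shared by them were counted is not given in the sources used here.

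**Figure D4:**
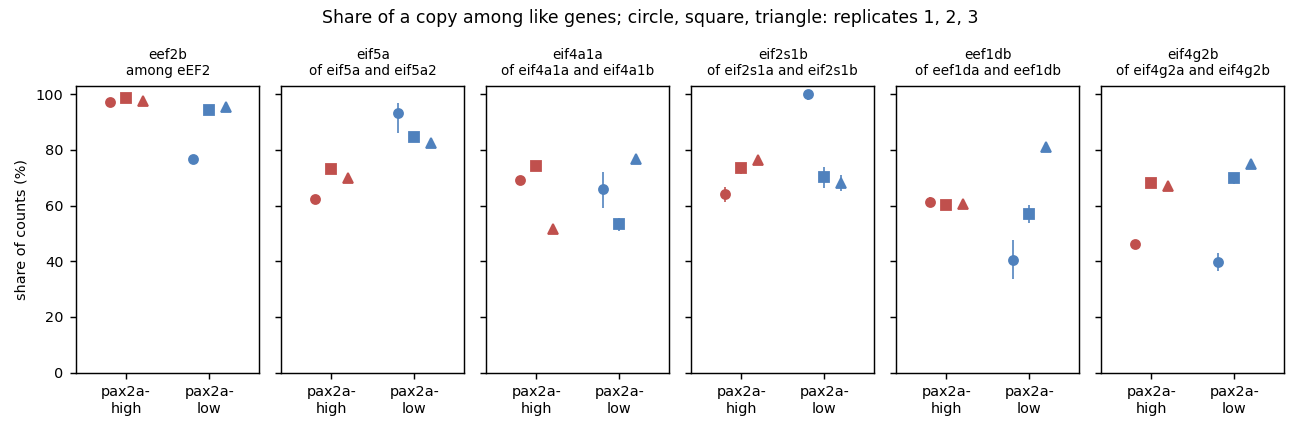
Share of counts (y axis, in %) that 1 copy takes among like genes in each library, pax2a-high left of pax2a-low, with 95% Wilson intervals for counting error. The eef2b points are higher and the eif5a points lower in all pax2a-high libraries than in any pax2a-low library, and the other 4 shares overlap.

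Other genes of translation were read from lists chosen, like the factors, with earlier results of these data known, and 0 genes in the 7 lists passed edgeR's test over all genes. Apart from these lists, cytosolic ribosomal protein genes had 15 of 81 tested that rose and 0 that fell, and 77 stood apart between the groups with pax2a-high on top. Over all genes tested, 1.12% rose and 1.46% fell, and 21.4% stood apart with pax2a-high on top. Of the 77 list genes tested, 10 (13%) were higher in pax2a-high cells and 0 lower at an edgeR p under 0.05 before adjustment, against 9.76% and 4.60% of all genes. Of the list genes tested, yars1, farsa and gatc reached the count filter through the pax2a-high libraries alone, so their direction was fixed in advance. The 10 include yars1, farsa and gatc, so their number is not read as an excess over all genes. In termination and recycling, 6 of 7 genes were tested and the median log2 fold change was 2.97. The release factor gene gspt1l was at 185 ± 51.1 CPM in pax2a-high cells, against 39.8 ± 30.9 CPM in pax2a-low cells (mean ± SD, n = 3 each, edgeR adjusted p = 0.198). Its relative gspt1 averaged 15.8 CPM in pax2a-high cells, against 0.744 CPM in pax2a-low cells, and denr, a recycling factor gene, 13.8 and 0.542 CPM (edgeR adjusted p = 0.613 and 0.555). In the pax2a-low libraries gspt1 had only 0, 18 and 0 counts and denr 2, 10 and 0. The 10 poly(A)-binding genes and partners had a median of 0.35, with pabpc1b at 186 ± 22.1 CPM in pax2a-high cells, against 16.8 ± 15.2 CPM in pax2a-low cells (mean ± SD, n = 3 each, edgeR adjusted p = 0.256). It passed when the pax2a-high library of replicate 2, that of replicate 3 or pax2a-low replicate 1 was left out (edgeR adjusted p of 0.029, 0.016 and 0.0122). In that list pabpc1a averaged 784 CPM in pax2a-high cells, against 395 CPM in pax2a-low cells, and pabpc1l 0.303 and 16.1 CPM (edgeR adjusted p = 0.613 and 0.479). Counts of pabpc1l were 0, 18 and 0 in pax2a-high libraries, against 4, 30 and 564 in pax2a-low libraries, which overlap.

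Genes of the integrated stress response, in which phosphorylated eIF2 lowers initiation in general and favours atf4 messages, had a median of 1.34 over 12 of 13 genes tested. In 4 of the 12 every pax2a-high library was on top, beside 21.4% of all genes tested. Log2 fold changes were negative for 2 genes, ddit3 (-0.52) and eif2ak3 (-0.71). The groups overlapped for both of these, and for atf4a and ppp1r15a (edgeR adjusted p = 0.685 and 0.673). The transcription factor gene atf4b differed by 1.91 on the log2 scale (SE 0.54, edgeR adjusted p = 0.0823), with 766 ± 132 CPM in pax2a-high cells, against 204 ± 141 CPM in pax2a-low cells (mean ± SD, n = 3 each). It passed without pax2a-low replicate 3 (2.48, edgeR adjusted p = 0.00589) and without pax2a-high replicate 2 (adjusted p = 0.036 in edgeR). It also passed without pax2a-high replicate 3 (adjusted p = 0.00763 in edgeR). In both groups replicate 3 lay nearest to the other group. The pseudokinase gene trib3 averaged 658 CPM in pax2a-high cells, against 70.1 CPM in pax2a-low cells (adjusted p = 0.265 in edgeR), and passed when the pax2a-high library of replicate 2, that of replicate 3 or pax2a-low replicate 3 was left out (edgeR adjusted p of 0.00166, 0.0116 and 0.00333). The gene ppp1r15b, which directs a phosphatase to eIF2, averaged 50.0 CPM in pax2a-high cells, against 1.65 CPM in pax2a-low cells (adjusted p = 0.278 in edgeR). Among 16 of 17 mTORC1 and translation kinase genes tested, the median was 0.78. There pdcd4b, whose product binds eIF4A, averaged 429 CPM in pax2a-high cells, against 184 CPM in pax2a-low cells (adjusted p = 0.208 in edgeR). The kinase gene mknk2b, whose mammalian relative phosphorylates eIF4E, averaged 1506 CPM in pax2a-high cells, against 787 CPM in pax2a-low cells (adjusted p = 0.282 in edgeR), and tsc1a, an mTORC1 inhibitor gene, 19.1 CPM in pax2a-high cells, against 58.2 CPM in pax2a-low cells (adjusted p = 0.678 in edgeR).

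Over the 22 of 24 cytosolic aminoacyl-tRNA synthetase genes tested, the median log2 fold change was 1.48. The tyrosine enzyme gene yars1 averaged 23.9 CPM in pax2a-high cells and had 0 counts in the pax2a-low libraries (adjusted p = 0.117 in edgeR). The phenylalanine enzyme gene farsa averaged 23.4 CPM in pax2a-high cells, against 0.0779 CPM in pax2a-low cells (adjusted p = 0.187 in edgeR), and the threonine enzyme gene tars1 49.3 CPM in pax2a-high cells, against 6.42 CPM in pax2a-low cells (adjusted p = 0.581 in edgeR). Both yars1 and farsa reached the count filter through the pax2a-high libraries alone, which fixed their direction, as it did for gatc, a mitochondrial factor gene. Factors of mitochondrial translation had a median of -0.16 over 8 of 12 tested. Among these, gatc averaged 10.5 CPM in pax2a-high cells with 0 counts in the pax2a-low libraries, tsfm 0.797 CPM in pax2a-high cells, against 10.8 CPM in pax2a-low cells, and the elongation factor gene gfm1 78.0 and 32.4 CPM. For both tsfm and gfm1 the groups overlapped (adjusted p = 0.73 in edgeR for each). Of 10 genes that modify elongation factors, 3 were tested. Besides dhps these were the diphthamide pathway genes dph6, at 12.8 CPM in pax2a-high cells, against 1.65 CPM in pax2a-low cells, and dph7, at 11.7 and 8.46 CPM.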

How the data were processed

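RNA was read in 6 libraries, 3 pax2a-high and 3 pax2a-low, grouped by their titles. The deposited values are raw read counts per gene. Per the submitters' processing notes, the authors aligned reads to GRCz11 with HISAT2 and counted them with featureCounts, over exons per the series design text. Their versions, the strand option and what was done with reads that map to several places are not given in the sources used here. Of the counts above 0, 67.8 to 89.0% were even. Why so many were even was not tested. No molecular identifiers are described, so every interval or floor covers only the error of counting. Each treats counts as independent, and would be too narrow or too low if they were not. Genes are called as the table calls them, and 30 rows without a name kept their ID.

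From these counts edgeR 4.0.16 in R 4.3.3 gave the main test: filterByExpr, TMM scaling, a robust quasi-likelihood fit with group as its one term, and p-values adjusted by Benjamini-Hochberg over 12524 genes at 0.05. Log2 fold changes are pax2a-high over pax2a-low, and their SE comes from the quasi-likelihood statistic. CPM are over the TMM-scaled library size. No transcript lengths were used, so levels are not compared between genes. Scripts were tested on simulated data.

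The members, classes and lists were chosen with earlier results of these data known. The rule for named genes takes every factor past the threshold, and in each class the 3 smallest p, the 2 highest mean CPM, and the highest and lowest log2 fold change. It adds factors at 0 in a whole group, and the 3 smallest p of each other list. The 9 genes eif3m, eif3k, eif3ba, eif3d, eif3i, eif3ea, eif3s6ip, eif4ebp1 and eef2a.2 were named after their values were seen, as were those not tested.

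Other settings tried were the edgeR fit with size factors of DESeq2, library sizes that leave out tg and mitochondrial rows, no count filter, 5 CPM in 3 libraries, DESeq2 1.42.0, limma 3.58.1 (voom with quality weights), a replicate block, halved counts, thinning to the shallowest library, a threshold of 0.01, and leaving out each library. Scalings of the overlap between groups, CPM over total counts among them, were added after the data were seen.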

Additional observations from a re-analysis of the deposited data

How the results depend on the processing

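Medians of the eIF and eEF genes stayed positive under every alternative run, from 0.96 to 1.98 for eIF and from 1.34 to 1.88 for eEF. DESeq2 size factors lowered the median of all genes by 0.11, to 0.24. Relative to it, the eIF median was 0.93 and the eEF median 1.099, against 1.01 and 1.14 under TMM. With limma the excess over all genes was 0.46 for eIF and 0.03 for eEF, with the replicate block 0.45 and 0.19 (where the eIF median, 1.87, was above the eEF median, 1.604), and with no filter 0.45 and 0.79; the cause was not tested. Factors with every pax2a-high library above every pax2a-low library numbered 29 to 43 over all scalings and libraries left out. The share of all genes with this pattern moved as well, from 19.6 to 34.1%. It was highest without pax2a-low replicate 2, where 40 factors had the pattern. The opposite pattern was found for 0 to 2 factors when a library was left out, against 9.41 to 15.4% of all genes.

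Higher factors numbered 2 with DESeq2 size factors, 2 without tg and mitochondrial rows, 2 with halved counts, 5 with no filter, 5 with DESeq2 and 0 at a threshold of 0.01. The 5 with DESeq2 include eif2b1 and eif4ebp3 (DESeq2 adjusted p = 0.00524 and 0.0433). The count filter had fixed the direction of both in advance. Leaving out 1 library gave 0 to 5. Where a gene that missed in the main fit is said to pass with a library left out, it did not pass without those not named. Some of these passes leave out the library nearest to the other group, and none is read as support for a difference. Over all genes, higher calls were 140, and 328 with no filter, 73 with the 5 CPM filter, 820 with DESeq2, 44 at 0.01 and 40 to 270 with 1 library left out. They were 134 with DESeq2 size factors, 148 without tg and mitochondrial rows and 162 with halved counts. Lower calls were 183, and 299 with no filter, 511 with DESeq2, 277 with limma, 110 at 0.01 and 120 to 253 with 1 library left out. A threshold of 0.01 can only lower the counts. The 5 CPM filter gave its 73 higher calls among 9279 genes tested, against 140 of 12524 in the main fit. The cause of the moves other than at 0.01 was not tested.

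The replicate block gave 9 higher factors and 425 higher genes, against 1 and 140 in the main fit. Same-numbered libraries correlated at 0.04, 0.05 and 0.06 in their deviations from the group means, all under 0.1, although each library correlated best with its own number. Column names give same-numbered libraries of both groups a shared set number, and the labels do not say what a set is. Correlations this low cannot exclude a pairing. Whether the numbers mark one was not settled, and the block is given only as an alternative.

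Among the named genes, signs turned for 13 factors and dph7, none of which passed. Other factors turned too and were counted only together: positive values numbered 57 of 71, and 53 with DESeq2 size factors, 64 with limma and 61 with the block. For eif4a3 the values were -0.27 with DESeq2 size factors, -0.15 without tg and mitochondrial rows, -0.049 with no filter, -0.080 with 5 CPM, -0.27 with DESeq2, -0.012 halved and -0.10 thinned, and -0.64 to 0.90 with 1 library left out. For eif4eb they were -0.059, -0.011, -0.021, -0.016 and -0.060 under the first 5 of these, -0.12 thinned, and -0.70 to 1.37 with 1 library left out. For eif2s2 they were -0.088 with DESeq2 size factors, -0.021 without tg and mitochondrial rows, -0.088 with DESeq2 and -0.044 thinned. With limma and with the block, eef2kmt had 2.81 and 5.47, eif4bb 0.81 and 0.032, eif4ea 1.32 and 0.55, eif4g3b 0.037 and 0.25, and eif4h 2.41 and 1.96. The block gave -1.12 for eef2a.2. Leaving out 1 library gave -0.20 to 0.24 for eif2s2, -1.53 to 9.44 for eef2kmt, -1.19 to 0.63 for eif4bb, -1.75 to 3.78 for eif4ea, -0.45 to 0.91 for eif4g3b, -0.77 to 2.60 for eif4h, -0.56 to 0.16 for eef2a.1, -1.43 to 1.85 for eef2a.2, -1.43 to 0.21 for eif2b2, -2.19 to 0.029 for eif3jb, -0.13 to 0.74 for eif5b and -0.15 to 1.52 for dph7. The cause of these turns was not tested.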
